A study of Mus musculus with 10 samples.

Results

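The 10 genes described here serve fatty acid handling in endothelial cells. They include the fatty acid transporters *Slc27a4*, *Slc27a1* and *Cd36* and the cytoplasmic binding proteins *Fabp5* and *Fabp4*. The others are the nuclear receptors *Pparg* and *Ppard* and the PPAR target genes *Cpt1a*, *Angptl4* and *Plin2*. All 10 were picked by gene symbol, with earlier results of these data known. Each was found once among the 27024 named rows of the expression table. Fatty acids enter an endothelial cell through membrane proteins, are held by binding proteins and trapped as acyl-CoA, and are then burned in mitochondria, stored in lipid droplets or passed on to the tissue. Peroxisome proliferator-activated receptors (PPARs) are fatty acid sensors that bind DNA as pairs with a retinoid X receptor and switch on genes for lipid uptake, storage and oxidation. Brain endothelium lies under a tight barrier and takes up fatty acids through a narrower set of carriers than the endothelium of heart or fat, where CD36 and FABP4 are known for their abundance.

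StcE is a bacterial mucinase, a protease specific for proteins with dense mucin-type O-glycosylation, and the study asked how removing these glycoproteins alters brain endothelial cells. Bulk RNA-seq was done on bEnd.3 cells, an immortalised mouse brain endothelial line labelled wild type, which had received either 5 nM StcE or saline of the same volume in serum-containing medium for 16 h. Each group held 5 samples, numbered 1, 2, 3, 4 and 5 for saline and 1, 2, 3, 5 and 6 for StcE, and values are listed in that order throughout. The labels hold no arm with an inactive enzyme, so the effects of cutting and of added protein cannot be told apart, and they do not say whether samples were separate cultures, so p-values measure only the spread between these samples.

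The values are FPKM, fragments per kilobase of exon scaled to the depth of the sample. Recovered depth was 21922594 to 29017310 fragments per saline sample and 21864604 to 33147402 per StcE sample. All 9 endothelial markers checked (*Pecam1*, *Cdh5*, *Kdr*, *Tek*, *Emcn*, *Esam*, *Erg*, *Eng* and *Cldn5*) were expressed, with a summed level of 1757 to 1895 FPKM in saline samples and 1669 to 1764 in StcE samples. In limma, 4 of the 9 were called lower after StcE and 0 higher, against 6.41% lower and 5.52% higher over all 11062 tested genes. The log2 fold changes of these 4 were -0.11 for *Pecam1*, -0.24 for *Tek*, -0.07 for *Esam* and -0.12 for *Erg*. The part of these falls in the results was not tested, and a smaller share of cells expressing a gene cannot be told apart from less of its RNA per cell in bulk samples. The 5 adipocyte markers with a row and all 4 astrocyte markers stayed under 0.1 FPKM in every sample. Of the 5 macrophage markers with a row, *Cd68* carried nearly the whole summed level of 19.4 to 21.7 FPKM in saline and 17.7 to 21.2 in StcE samples, and the other 4 stayed under 0.1.

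After StcE, *Pparg*, *Cpt1a*, *Ppard* and *Slc27a4* fell and *Angptl4* rose. The changes were modest: *Slc27a4* fell by 9.52% of its saline mean, *Pparg* fell by 22.7% and the other 2 lay between, and *Angptl4* rose by 13.3%. *Plin2*, *Fabp5* and *Slc27a1* did not pass the test, *Fabp4* lay below the level that was tested, and *Cd36* was too low to judge. Of the 8 members with a mean FPKM of at least 1, 5 therefore passed an adjusted p of 0.05 (4 lower and 1 higher) in limma on log2(FPKM + 1) with Benjamini-Hochberg adjustment over 11062 genes. Across all of those genes, 11.9% passed, 6.41% lower and 5.52% higher. The median log2 fold change was -0.10 over the 8 tested members and -0.00066 over all tested genes. Saline and StcE samples did not overlap for 6 of the 8, whereas 10.7% of all tested genes had no overlap. The members and the further gene lists below were chosen with earlier results of these data known. Their shares therefore cannot be read as an excess over all tested genes. In exact two-sided permutation tests on FPKM, which cannot go below p = 0.00794 with 5 samples against 5, those 6 members reached that smallest value.

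**Figure D1:**
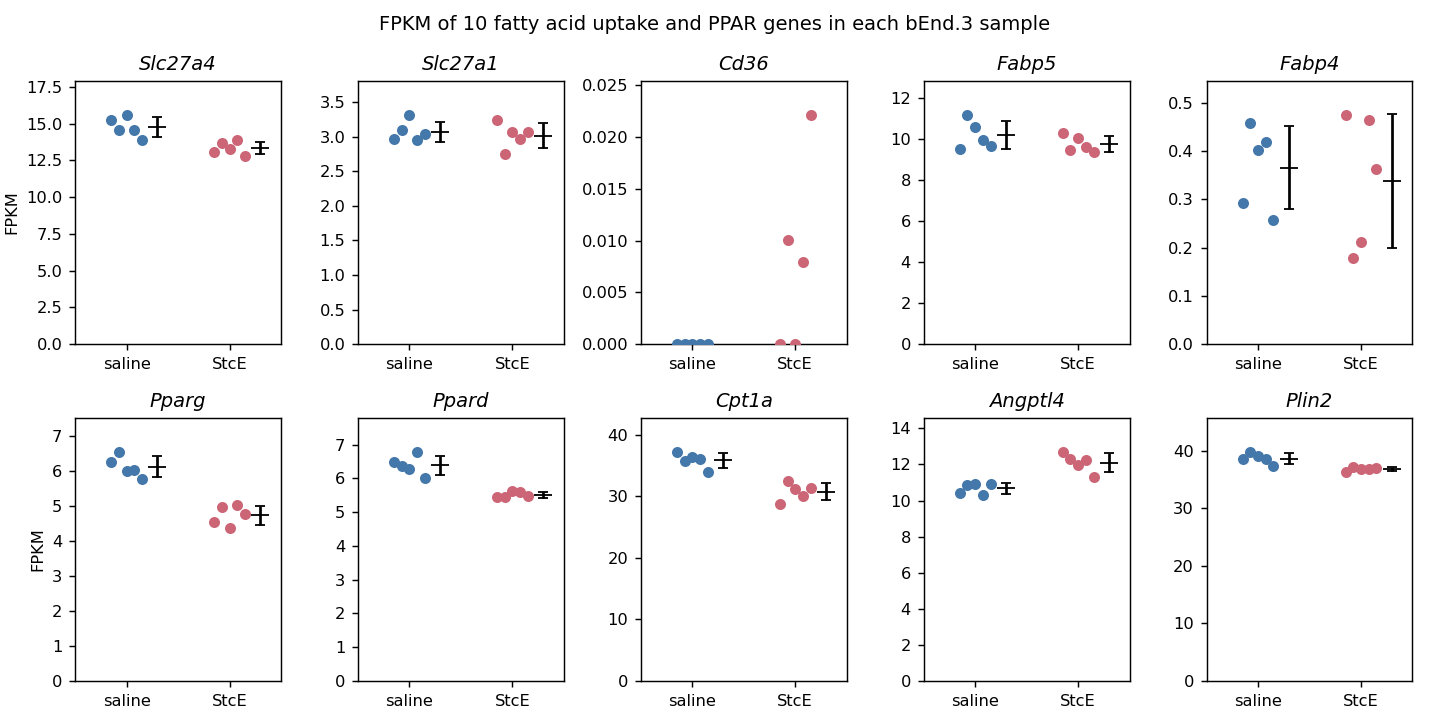
FPKM of each of the 10 genes in every sample, with saline points in blue and StcE points in red, replicates in label order from left to right. Each panel has its own axis starting at 0, and black bars give the mean and SD (n = 5), left out for *Cd36*. *Pparg* samples stand at 5.77 to 6.54 FPKM with saline and 4.36 to 5.02 with StcE, while *Cd36* is at 0 in all saline samples.

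DNA just before a RefSeq start of each of the 4 genes that fell is shown because PPARs and retinoid X receptors read the hexamer AGGTCA. Sequence outside these windows was not searched. RefSeq windows of 250 bases before an annotated start (build GRCm38.p6) were found for 7 of the 10 members, 11 windows in all. *Fabp4*, *Fabp5* and *Angptl4* had no entry. Each sequence runs 5′ to 3′ on the strand of its gene, without any bases that lie in the gene's own GENCODE exons, and capitals mark an AGGTCA on either strand (TGACCT when read from the other). *Pparg* has 3 windows, and the one shown is the one without exon bases. Which of the *Pparg* starts bEnd.3 cells use was not tested. The sequences shown for *Pparg* and *Cpt1a* lie inside the GENCODE limits of these genes, before a RefSeq start downstream of the GENCODE one.

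Pparg, chr6:115421816-115422065, plus strand: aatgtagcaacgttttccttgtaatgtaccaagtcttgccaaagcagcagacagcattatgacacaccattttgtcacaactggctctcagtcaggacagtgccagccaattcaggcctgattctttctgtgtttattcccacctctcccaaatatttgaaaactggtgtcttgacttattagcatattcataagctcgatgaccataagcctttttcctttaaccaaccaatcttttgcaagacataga
Ppard, chr17:28232504-28232699, plus strand: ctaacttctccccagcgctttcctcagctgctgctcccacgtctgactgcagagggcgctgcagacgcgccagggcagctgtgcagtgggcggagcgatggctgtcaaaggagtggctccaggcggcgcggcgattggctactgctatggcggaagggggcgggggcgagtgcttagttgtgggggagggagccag
Cpt1a, chr19:3323051-3323284, plus strand: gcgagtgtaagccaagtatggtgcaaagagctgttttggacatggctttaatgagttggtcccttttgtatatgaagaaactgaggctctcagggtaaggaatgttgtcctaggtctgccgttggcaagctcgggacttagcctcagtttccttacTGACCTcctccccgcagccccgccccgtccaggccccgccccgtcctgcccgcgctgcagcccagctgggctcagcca
Slc27a4, chr2:29802384-29802633, plus strand: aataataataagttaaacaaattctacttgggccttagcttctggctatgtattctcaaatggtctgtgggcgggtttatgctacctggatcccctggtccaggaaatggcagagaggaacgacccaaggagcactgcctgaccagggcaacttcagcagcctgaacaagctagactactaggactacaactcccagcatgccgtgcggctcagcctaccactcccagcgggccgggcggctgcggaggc

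For the counts, all windows were searched over their whole 250 bases, exon bases included. AGGTCA on either strand was present in 5 of the 11 member windows, those of *Cpt1a*, *Plin2* and *Cd36* and the other 2 of *Pparg*, and in 14% of all 32851 RefSeq windows of this length. In *Pparg* both matches involve bases of its own exons and are not in the sequence shown. In *Cpt1a* it began 94 bases before the annotated start. The full repeat AGGTCANAGGTCA, which contains the hexamer, was in 0 of the 11 windows and in 0.0335% of all windows. The letters GGGCGG, also searched on both strands, were in 8 of the 11 windows and in 32.7% of all windows. The sequences shown of *Ppard*, *Cpt1a* and *Slc27a4* each hold 2 of them. The *Pparg* window shown had neither the hexamer nor GGGCGG, whereas its other windows held 1 and 2 GGGCGG. A match describes letters and not a bound site, and no match says only that these letters are not in this window.

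*Pparg* encodes PPARγ, the receptor best known for fat storage and for *Cd36* and *Fabp4* expression in fat and capillary endothelium. The gene lies on chromosome 6, from 115360951 to 115490399 on the plus strand (GRCm38). Saline samples held 6.27, 6.54, 5.99, 6.04 and 5.77 FPKM, and StcE samples 4.53, 4.97, 4.36, 5.02 and 4.78 FPKM. Every saline sample was above every StcE sample. The means were 6.12 ± 0.295 and 4.73 ± 0.281 FPKM (SD, n = 5), and the gene fell by 22.7%, a log2 fold change of -0.31 ± 0.0415 (SE) on the FPKM + 1 scale (95% interval -0.40 to -0.22, adjusted p = 7.5e-04 in limma). The log2 ratio of the mean FPKM itself was -0.37. Among the 709 genes called lower, 56 had a more negative log2 fold change than *Pparg*. Between 315 and 563 fragments per sample lay behind these values. *Pparg* was the sole member called under all 22 alternatives tried.

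*Ppard* encodes PPARδ, the receptor found in most tissues and known for fatty acid oxidation genes. It lies on chromosome 17, from 28232700 to 28301474 on the plus strand. Its level was 6.48, 6.36, 6.27, 6.78 and 6.02 FPKM in the saline samples and 5.45, 5.44, 5.62, 5.59 and 5.48 in the StcE samples. The StcE samples lay close together, all below the saline samples. The means were 6.38 ± 0.280 and 5.51 ± 0.0848 FPKM (SD, n = 5), and *Ppard* fell by 13.6%, a log2 fold change of -0.18 ± 0.0309 (SE) (adjusted p = 0.00360 in limma).

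With saline the FPKM ranges of the 2 receptors overlapped, whereas with StcE each *Ppard* value was above each *Pparg* value. The ratio of *Pparg* to *Ppard* within a sample, chosen for description after the values were seen, was 0.960 ± 0.0492 with saline and 0.859 ± 0.0557 with StcE (SD, n = 5). The ranges of 0.891 to 1.03 and 0.776 to 0.915 overlapped. An exact two-sided permutation test on the log2 ratio gave p = 0.0238, or 0.0357 adjusted over 3 ratios. For a ratio picked this way, no conclusion is drawn from that p-value. The likeness of the 2 levels rests on the exon length that divides them. Per longest coding transcript, the saline range was 8.02 to 9.09 FPKM for *Pparg* and 13.8 to 15.5 for *Ppard*, which do not overlap. *Ppara*, the third receptor of the family, had at most 3 recovered fragments in any sample.

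*Rxra*, the retinoid X receptor that pairs with PPARs, moved in the same direction. It was 13.9 FPKM on average with saline (13.0 to 14.8) and 11.3 with StcE (10.5 to 12.0), a log2 fold change of -0.28 ± 0.0436 (SE) (adjusted p = 0.00204 in limma). Of the 17 genes listed as receptors, partners and coregulators of PPARs, 13 were tested, and *Rxra* was the one that passed (7.69%, against 11.9% of all tested genes). The list's median log2 fold change was -0.06. *Rxrb* had a log2 fold change of -0.10 (limma adjusted p = 0.0743).

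**Figure D2:**
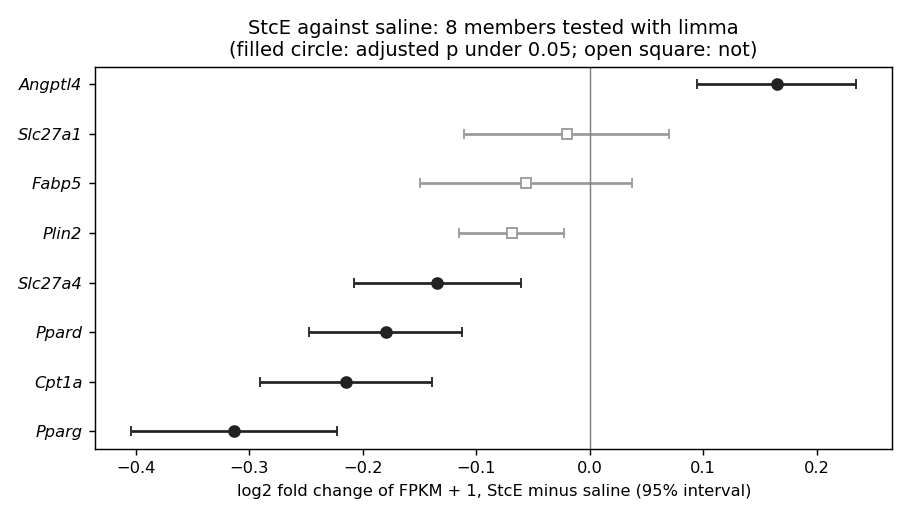
Log2 fold change of FPKM + 1, StcE minus saline, for the 8 tested members (horizontal axis), with 95% intervals from limma. Filled circles passed an adjusted p of 0.05 and open squares did not, with *Pparg* lowest at -0.31 and *Angptl4* alone on the positive side at 0.16.

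*Cpt1a* encodes carnitine palmitoyltransferase 1A, which loads long-chain acyl groups onto carnitine and controls their entry into mitochondria for oxidation. It is a PPAR target, on chromosome 19 from 3322334 to 3385733, plus strand. The saline samples held 37.2, 35.7, 36.4, 36.1 and 33.9 FPKM and the StcE samples 28.8, 32.6, 31.1, 30.1 and 31.4. No StcE sample reached the lowest saline sample, replicate 5. The means were 35.9 ± 1.22 and 30.8 ± 1.44 FPKM (SD, n = 5), and *Cpt1a* fell by 14.2%, a log2 fold change of -0.21 ± 0.0347 (SE) (adjusted p = 0.00257 in limma).

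*Angptl4* encodes a secreted inhibitor of lipoprotein lipase and is among the most widely used PPAR target genes. It lies on chromosome 17, from 33773750 to 33781830 on the minus strand. Its FPKM was 10.4, 10.8, 10.9, 10.3 and 10.9 with saline and 12.7, 12.3, 12.0, 12.3 and 11.3 with StcE. All StcE samples were higher than all saline samples, although replicate 6 of StcE came near them. From 10.7 ± 0.299 to 12.1 ± 0.515 FPKM (SD, n = 5), the mean rose by 13.3%, a log2 fold change of 0.16 ± 0.0320 (SE) (adjusted p = 0.00724 in limma). When samples were rescaled by the sum of FPKM the rise was 0.15 and the limma adjusted p 0.0516.

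*Plin2* encodes perilipin 2, the coat protein of lipid droplets outside fat cells, on chromosome 4 from 86648386 to 86670060, minus strand. Saline samples stood at 38.6, 39.8, 39.1, 38.6 and 37.4 FPKM and StcE samples at 36.3, 37.2, 36.8, 36.8 and 37.1. The groups did not overlap, but replicate 5 of saline was close to the StcE samples. The difference was small, from 38.7 ± 0.886 to 36.8 ± 0.360 FPKM (SD, n = 5), with a log2 fold change of -0.07 (95% interval -0.12 to -0.02, limma adjusted p = 0.0578), and it did not pass the threshold. Without saline replicate 5 the limma adjusted p was 0.0339. A pseudogene, *Gm12551*, matches 40.8% of a *Plin2* transcript at 95% identity or more, and its highest FPKM was 0.0453.

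Of the PPAR targets among the members, *Cpt1a* thus fell and *Angptl4* rose. The ratio of *Angptl4* to *Cpt1a* within a sample, also chosen after the values were seen, was 0.298 ± 0.0166 with saline and 0.394 ± 0.0313 with StcE (SD, n = 5), with ranges of 0.280 to 0.322 and 0.360 to 0.441. Since one gene rose and the other fell without overlap, these ranges had to separate, and the ratio is given as a description of size. A wider list of 30 PPAR targets had 11 tested genes, of which 2 were lower and 2 higher (36.4% called, against 11.9% of all tested genes), with a median log2 fold change of -0.07. *Acot2*, a mitochondrial acyl-CoA thioesterase, went from 2.73 to 2.13 FPKM (log2 fold change -0.25, limma adjusted p = 0.0407). *Acadvl*, the very long-chain acyl-CoA dehydrogenase, went from 18.0 to 16.9 FPKM (-0.08, limma adjusted p = 0.0371). In the other direction, *Lpin1*, a phosphatidate phosphatase, went from 1.60 to 1.99 FPKM (0.21, limma adjusted p = 0.0139) and *Ucp2*, a mitochondrial carrier, from 15.4 to 16.7 (0.11, limma adjusted p = 0.0178). *Pdk4*, a target used in many tissues to read PPAR activity, was at 0.0835 FPKM with saline and 0.110 with StcE and was not tested.

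**Figure D3:**
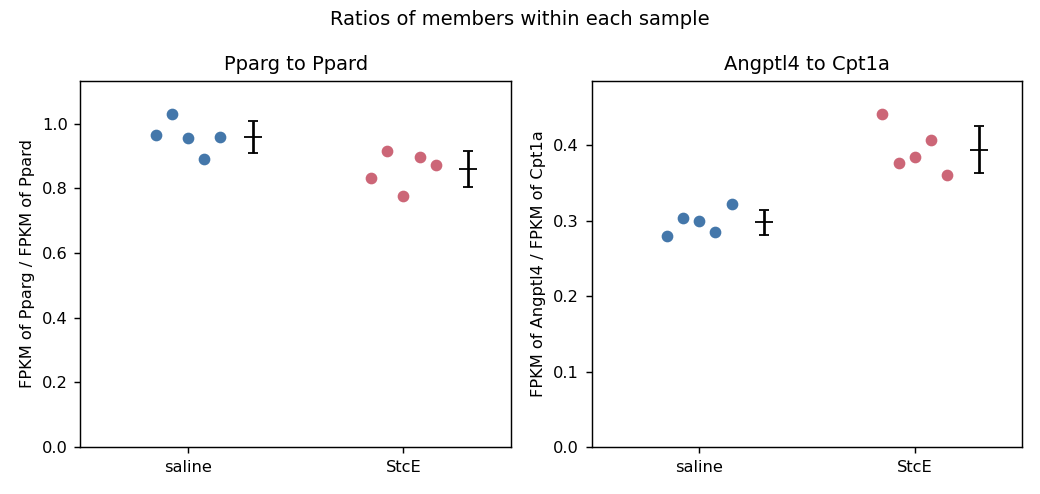
Ratio of *Pparg* to *Ppard* (left) and of *Angptl4* to *Cpt1a* (right) in each sample, from FPKM, with axes starting at 0 and black bars for the mean and SD (n = 5). The *Angptl4* to *Cpt1a* ratios separate, at 0.280 to 0.322 with saline and 0.360 to 0.441 with StcE, while the ranges of *Pparg* to *Ppard* overlap.

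*Slc27a4* encodes FATP4, a long-chain fatty acid transport protein with acyl-CoA synthetase activity, and was the most highly expressed transporter among the members. It lies on chromosome 2, from 29802634 to 29817522 on the plus strand. Saline samples held 15.2, 14.6, 15.6, 14.6 and 13.9 FPKM and StcE samples 13.1, 13.7, 13.3, 13.9 and 12.8. The groups met without crossing, since the lowest saline sample, replicate 5, and the highest StcE sample, replicate 5, agreed to 3 digits. The means were 14.8 ± 0.663 and 13.4 ± 0.434 FPKM (SD, n = 5), and *Slc27a4* fell by 9.52%, a log2 fold change of -0.13 ± 0.0336 (SE) (adjusted p = 0.0256 in limma). This call was the least secure of the 5. It was lost in 8 of 22 alternatives, among them without saline replicate 1 or 3 or StcE replicate 1, 3 or 6, where the limma adjusted p was 0.0532 to 0.0660.

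*Slc27a1* encodes FATP1, the related transporter of muscle and fat, on chromosome 8 from 71568882 to 71587302, plus strand. The FPKM was 2.97, 3.10, 3.31, 2.95 and 3.03 with saline and 3.23, 2.75, 3.06, 2.96 and 3.07 with StcE. The groups overlapped over most of their range. The means were 3.07 ± 0.143 and 3.02 ± 0.179 FPKM (SD, n = 5), and the log2 fold change of -0.02 had a 95% interval of -0.11 to 0.07 (limma adjusted p = 0.790), which spans changes of either sign. *Slc27a4* stood above *Slc27a1* in every sample, at a ratio of 4.81 with saline and 4.45 with StcE. Per longest coding transcript the 2 genes were closer, at 16.1 and 6.41 FPKM with saline. A stretch of *Slc3a2* matches 6.04% of a *Slc27a1* transcript at 95% identity or more. *Slc3a2* was at 54.0 FPKM with saline and 53.2 with StcE, and whether fragments are shared was not tested.

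*Cd36* encodes the scavenger receptor and fatty acid translocase, on chromosome 5 from 17781690 to 17888801, minus strand. It was listed at 0 in all 5 saline samples and at 0, 0.0101, 0, 0.00795 and 0.0221 FPKM in the StcE samples, which amounts to 4 recovered fragments in all. A count of 0 in a saline sample allows up to 3 fragments, or 0.0275 to 0.0364 FPKM on this gene, counting error only, and every StcE value lay below these limits. *Cd36* was therefore too low to judge in either group, and no fold change is given (exact two-sided permutation test, p = 0.167).

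*Fabp5* encodes the epidermal-type binding protein that carries fatty acids in the cytoplasm and to PPARδ, on chromosome 3 from 10012548 to 10016607, plus strand. Saline samples held 9.53, 11.2, 10.6, 9.96 and 9.66 FPKM and StcE samples 10.3, 9.44, 10.0, 9.60 and 9.37. The ranges overlapped. The means were 10.2 ± 0.680 and 9.74 ± 0.392 FPKM (SD, n = 5), with a log2 fold change of -0.06 and a 95% interval of -0.15 to 0.04 (limma adjusted p = 0.434), so a fall as large as that of *Slc27a4* lies inside the interval. Copies in 3 other genes match 41.3% of the *Fabp5* transcript at 95% identity or more, and one of them, *Gm6166*, was at 29.9 FPKM with saline and 26.2 with StcE, so fragments may be shared between them and the *Fabp5* level is uncertain.

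*Fabp4* encodes the binding protein of fat cells and of capillary endothelium in many organs, near *Fabp5* on chromosome 3, from 10204088 to 10208576 on the minus strand. Saline samples held 0.293, 0.457, 0.401, 0.418 and 0.257 FPKM and StcE samples 0.473, 0.177, 0.212, 0.464 and 0.362. The StcE samples fell both above and below the saline samples. With 28 to 52 fragments per saline sample and 22 to 73 per StcE sample, the gene was detected in every sample, and no difference was detectable (exact two-sided permutation test, p = 0.698, and limma adjusted p = 0.865 with no filter on low values).

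By FPKM the saline order from highest to lowest was *Plin2*, *Cpt1a*, *Slc27a4*, *Angptl4*, *Fabp5*, *Ppard*, *Pparg*, *Slc27a1*, *Fabp4* and *Cd36*. In saline samples 2 neighbouring pairs overlapped, *Angptl4* with *Fabp5* and *Ppard* with *Pparg*. After StcE the order was the same and no neighbours overlapped. These levels rest on the length that divides the fragments. The exon union of *Fabp5* is 3567 bases against 987 in its longest coding transcript, because a retained-intron transcript of 3238 bases is annotated. The union of *Fabp4* is 4489 bases against 896. Recomputed per longest coding transcript, *Fabp5* was 36.8 FPKM with saline and 35.2 with StcE, and *Fabp4* 1.83 and 1.69, while *Cpt1a* was 63.5 and 54.5 and *Plin2* 72.0 and 68.5. On this scale *Fabp5* stood above *Slc27a4* in both groups. *Ppard*, at 14.6 FPKM with saline, came above *Angptl4* at 11.4 and overlapped with *Slc27a4*, while with StcE *Ppard* overlapped with *Angptl4* and *Pparg* with *Slc27a1*. The recomputed levels of *Cpt1a* and *Angptl4*, and their places in this order, are uncertain. The exon lengths behind their deposited FPKM differ from those used to recompute them. The order and its overlapping neighbours therefore depend on the gene model, whereas the length cancels in the ratio of a gene between groups. Whether that ratio changes with the exons counted was not tested.

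Genes around the members were then counted by step of the pathway. Of 25 genes for uptake, binding and activation, 11 were tested, and 4 (36.4%) rose while 0 fell, against 5.52% higher and 6.41% lower over all tested genes, with a median log2 fold change of 0.02. Those 4 convert or hold acyl-CoA, but tested genes of the same list with such a role did not all move. *Acsl3* and *Acsl4* are long-chain acyl-CoA synthetases of lipid droplets and membranes. *Acsl3* rose from 4.26 to 6.28 FPKM (log2 fold change 0.47, limma adjusted p = 2.6e-04), and *Acsl4* from 23.0 to 28.5 (0.30, limma adjusted p = 1.9e-05). *Acsbg1*, another acyl-CoA synthetase, rose from 1.59 to 2.11 FPKM (0.27, limma adjusted p = 0.00951), and like the *Acsl* pair its saline and StcE samples did not overlap. *Dbi*, the acyl-CoA binding protein, also passed, with a log2 fold change of 0.24 (limma adjusted p = 0.0234) and groups that overlapped slightly. The synthetase *Acsl5*, at 46.1 FPKM in both groups, did not pass (log2 fold change 0.0006, limma adjusted p = 0.989). Neither did *Acsl1* (-0.0024, limma adjusted p = 0.984) or *Acbd3* (-0.03, limma adjusted p = 0.514). The member *Slc27a4*, whose protein also has acyl-CoA synthetase activity, fell. The lipase anchor of capillaries, *Gpihbp1*, was 2.60 FPKM with saline and 2.52 with StcE, and *Lpl* itself 0.111 and 0.102.

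Downstream of *Cpt1a*, 17 of 19 genes of mitochondrial fatty acid oxidation were tested, and 3 (17.6%) fell while 0 rose, against 6.41% lower and 11.9% called in either direction over all tested genes. The median log2 fold change was -0.04. *Hadh*, a short-chain hydroxyacyl-CoA dehydrogenase, went from 8.30 to 7.53 FPKM (log2 fold change -0.13, limma adjusted p = 0.0482), *Acadvl* is given above, and *Acaa2*, a thiolase, had a log2 fold change of -0.14 (limma adjusted p = 0.0309) with overlapping groups. The other 14 did not pass. Of 22 genes for lipid droplet storage and lipolysis, 13 were tested, with *Lpin1* higher and *Lipa*, the lysosomal acid lipase, lower (-0.10, limma adjusted p = 0.0371, overlapping groups), which is 15.4% called against 11.9% of all tested genes, and a median of -0.02. None of the 6 other angiopoietin-like genes reached a mean of 1 FPKM.

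**Figure D4:**
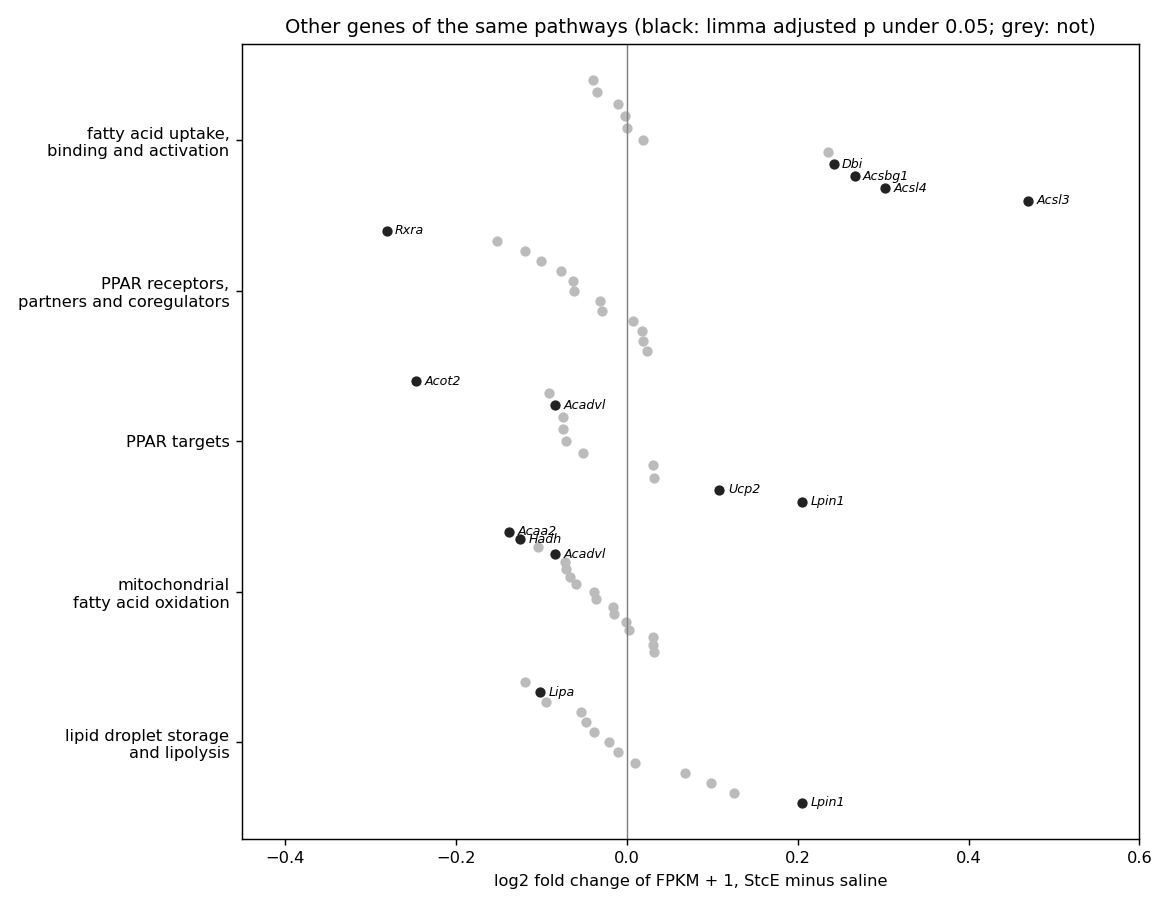
Log2 fold change of FPKM + 1, StcE minus saline (horizontal axis), for the tested genes of the 5 pathway lists, 1 point per gene, with genes in 2 lists drawn in both. Black points with names passed a limma adjusted p of 0.05, and the 4 black points of the uptake, binding and activation list all lie to the right of 0, between 0.24 and 0.47.

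For each tested member, the genes most alike in pattern were taken as those with the highest Pearson correlation of log2(FPKM + 1) over the 10 samples. The coefficients are descriptions, since samples of both groups enter them and any gene that moved with treatment will rank high. *Pparg* was most like *Timp3* (r = 0.978), *Vps41* (0.978) and *Vldlr* (0.976), and *Ppard* most like *Rnf19a* (0.973), *Prkch* (0.971) and *Ehd4* (0.969). *Cpt1a* ran most closely with *Slc35f1* (0.983), *Nedd4* (0.975) and *Exoc4* (0.972), and *Slc27a4* with *Lzts2* (0.975), *Bcl2l1* (0.954) and *Mfge8* (0.952). *Angptl4* was nearest to *Pole4* (0.983), *Ldha* (0.967) and *Pimreg* (0.964), and *Plin2* to *Ctps2* (0.984), *Tmem248* (0.955) and *Vangl1* (0.953). The 2 members with overlapping groups had weaker partners, *Cox7c* for *Fabp5* (0.916) and *Mgst3* for *Slc27a1* (0.924).

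One sample was often at the edge of its group. Saline replicate 5 was the lowest saline sample for 5 of the 8 tested members, *Slc27a4*, *Pparg*, *Ppard*, *Plin2* and *Cpt1a*. The share over all tested genes was not counted, so this describes the members only. Without saline replicate 5, 6 members passed the threshold in limma in place of 5, as *Plin2* joined them.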

How the data were processed

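RNA was measured in 10 bEnd.3 samples, 5 per group. Per the submitters' processing notes, the tools were HISAT2 2.0.5, featureCounts 1.5.0-p3 and DESeq2 1.32.0, with build mm10. The authors deposited FPKM, 1 column per sample, for 27024 named rows beside 22874 empty ones, and gave no annotation release in the sources used here. The libraries were poly(A)-selected and strand-specific. The authors' count-based test could not be applied to FPKM, so limma 3.58.1 in R 4.3.3 (lmFit, eBayes with trend) was run on log2(FPKM + 1) for 11062 genes (mean FPKM 1 or more), with the condition as the sole term, Benjamini-Hochberg adjustment over all of them and a threshold of 0.05. Fold changes on this scale understate those of low genes. Single values were compared by exact two-sided permutation tests over 252 arrangements.

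Fragments were recovered as FPKM times the GENCODE vM21 exon length, and 96.6% of positive values came out whole within 0.05 fragments over 26724 genes matched by name. *Cpt1a* and *Angptl4* did not, so the exon lengths behind them differ and no fragments are given for them. Members with a median under 10 fragments per sample were called too low to judge. Replicates differed by more than counting noise, with chi-square divided by its degrees of freedom at 3.61 to 11.0 between pairs. Near-identical copies, 150 bases or longer and 95% identical or more, were looked for in other genes' transcripts (BLAST 2.17.0). The procedure was tested on simulated data (11062 genes, 200 of them changed). Changes of 0.2 in log2 were called for 113 genes beside 1 false call, changes of 0.5 for 191 beside 8, and changes of 1 for 196 beside 14. With no changed gene, 0 calls were made. The simulated noise was independent between genes and between samples, without shifts of a whole sample or differences in scale. These counts therefore do not measure the false calls in the real data.

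The members and lists were chosen with earlier results of these data known. The genes named are the members, the genes of each list past the threshold without overlap between groups (at most 5 a list), and the 3 genes most correlated with each member. *Rxrb*, *Dbi*, *Acsl1*, *Acsl5*, *Acbd3*, *Acaa2*, *Lipa*, *Ppara*, *Pdk4*, *Lpl*, *Gpihbp1*, *Lipg*, *Mfsd2a* and *Plin5* were named after their values were seen. Pericyte, fibroblast and muscle markers summed to 0.149 to 0.273, 1.20 to 1.43 and 0.755 to 0.961 FPKM in saline samples and 0.126 to 0.225, 1.19 to 1.51 and 0.808 to 1.03 in StcE samples. Alternatives were a pseudocount of 0.1, a minimum of 0.1, no filter, eBayes without trend or robust, array weights, upper quartile and sum-of-FPKM scaling, voom on recovered fragments, a replicate block, the same 8 samples without it, and each sample left out. Scaling by total fragments was added after seeing the data.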

Additional observations from a re-analysis of the deposited data

How the results depend on the processing

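*Pparg*, *Ppard*, *Cpt1a*, *Slc27a4* and *Angptl4* kept their direction under every alternative. Same-numbered samples did not deviate together (correlations of -0.10 to 0.05 over 4 numbers). The labels do not say what the numbers mean, so whether samples were paired is not known. With the number as a replicate block over 8 samples, 1 member passed in limma (1 lower, 0 higher), *Pparg*, and the limma adjusted p was 0.0531 for *Cpt1a*, 0.0602 for *Angptl4*, 0.0884 for *Ppard* and 0.188 for *Slc27a4*, while 349 genes passed in all (162 lower, 187 higher). Those 8 samples with no block gave 4 members and 885 genes (452 lower). Under the block the log2 fold changes were -0.22 for *Cpt1a*, 0.18 for *Angptl4*, -0.16 for *Ppard* and -0.12 for *Slc27a4*, near those over all 10 samples. With the sum of FPKM as the scale, 0 members were higher, and 790 genes passed, 518 lower and 272 higher, against 709 and 611 as deposited, 628 and 667 with total fragments and 639 and 653 with the upper quartile. These scalings moved the median of all genes by less than 0.1. With no filter on low values, 801 genes passed (409 lower, 392 higher). Leaving out 1 sample gave 793 to 1255 genes (409 to 667 lower, 384 to 588 higher), 793 without StcE replicate 3 and 838 without saline replicate 1, and 4 to 6 members. The log2 fold change of *Slc27a1* was -0.040 to 0.0042 when 1 sample was left out, positive without saline replicate 3 (6.4e-05) and without StcE replicate 2 (0.0042), and in no case past the threshold. The cause of these changes was not tested. Depth limits *Cd36*. *Fabp4* varied between samples by 23.5% of its mean with saline and 41.0% with StcE.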

Other observations

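Among the listed genes below a mean of 1 FPKM, *Lipg* and *Mfsd2a* stood apart, and both were chosen after their values were seen. For genes picked this way, no conclusion is drawn from the p-values. *Lipg*, the endothelial lipase that cuts phospholipids of high-density lipoproteins, was at 0.0435 to 0.0833 FPKM in saline samples and 0.281 to 0.429 in StcE samples. That is roughly 5 to 11 and 31 to 51 fragments per sample. The fragments of *Lipg* did not come out whole in every sample, so these counts are approximate. Its groups did not overlap (p = 0.00794 by an exact two-sided permutation test, which can go no lower, and limma adjusted p = 0.000713 with no filter on low values). *Mfsd2a*, the carrier of lysophosphatidylcholine with docosahexaenoic acid across the blood-brain barrier, was at 0.291 to 0.599 FPKM in saline samples, from 15 to 41 fragments, and 0.743 to 0.916 in StcE samples, from 44 to 67 fragments. Its groups did not overlap either (exact two-sided permutation test, p = 0.00794, and limma adjusted p = 0.0277 with no filter). Both genes remained low in absolute level beside *Slc27a4*. The groups of *Plin5* did not overlap either, but this gene was too low to judge. It held 0 fragments in every saline sample and 1 to 3 in each StcE sample.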
